A study of Bos taurus with 12 samples.

Results

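The CD antigen genes encode cell surface molecules that carry a cluster of differentiation number, most of them used to name and sort white blood cells. The genes described here are those whose symbol is CD followed by a number and at most one letter, with CD163 left out. They account for 382 of 196275 CpG cytosines (sites) and 5 of 1227 windows of 500 bases (tiles) at which the authors listed a methylation difference, and for 39 of 11830 gene symbols with a listed site. A names table of the cattle genome held 75 such symbols. No listed row carried the other 36 symbols, among them CD14, CD79A, CD2, CD3D and CD3G, and these were not analysed here. Only 146362 of the 196275 listed sites had a symbol, so listed sites of these genes without a symbol would be missed.

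Whole blood was taken from 12 dairy cows (Bos taurus) kept under the same conditions on one farm, and methylated cytosines in its genomic DNA were read by enzymatic methyl sequencing. The Mastitis Susceptible Group (MSG) held 6 cows that were culled in the following year because of complications of mastitis, an inflammation of the udder, that had not been identified when blood was drawn. The Mastitis Resilient Group (MRG) held 6 cows with a similar spread of ages that were still in the herd at that time. The labels gave no treatment, breed, parity or cell count, and replicate numbers only name the cows.

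CD antigens work as receptors, co-receptors, ligands and adhesion molecules through which leukocytes recognise antigen, other cells and pathogens. T cells see antigen through a receptor complex that needs CD3 chains and the co-receptors CD4 or CD8, and their response depends on costimulatory ligands such as CD80, CD83 and CD86 on antigen presenting cells. Methylation of CpGs in promoters and enhancers differs between blood cell types and is often lower where a gene is active, and recruitment of leukocytes from blood is the main early defence of an infected udder.

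Values are percent methylation per cow, and differences are MSG minus MRG in percentage points. Every row had been selected by the authors on these same 12 cows, with an absolute difference of at least 25 points in the authors' deposited table, so the tests below are retests of selected rows and not independent evidence. Where sites are taken by direction, that direction comes from these same cows, so the values describe the sites and test nothing. Whole blood is a mixture of cells: a change in the share of a cell type and a change of methylation within cells cannot be told apart. No expression values were used, so the labelled tissue was not checked against cell markers. A thymine in a cow's own genome reads like an unmethylated cytosine, and sequence variants were not tested. Over all listed sites, the 12 cows had 20.1% to 23.0% of values at exactly 0.

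Fewer CD antigen sites were higher than lower in MSG. Of the 382 sites, 156 (40.8%) were higher and 226 lower, against 52.7% higher among all listed sites. The median difference was -27.4 points at CD antigen sites and 22.7 points at all listed sites. Small differences were not listed, so each median takes the sign of the majority and does not measure a shift. CD38, an ectoenzyme of plasma cells and activated lymphocytes, carried 102 of the 226 lower sites, and CD83, a marker of mature dendritic cells, held another 76 sites of both directions. Without CD38 the share higher was 52.5% of 261 sites, and without CD38 and CD83 it was 49.7% of 185 sites. These 185 sites, 92 higher and 93 lower, had a median difference of -19.2 points. By majority of their sites, 15 genes were mostly higher, 20 mostly lower and 4 evenly split.

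**Figure D1:**
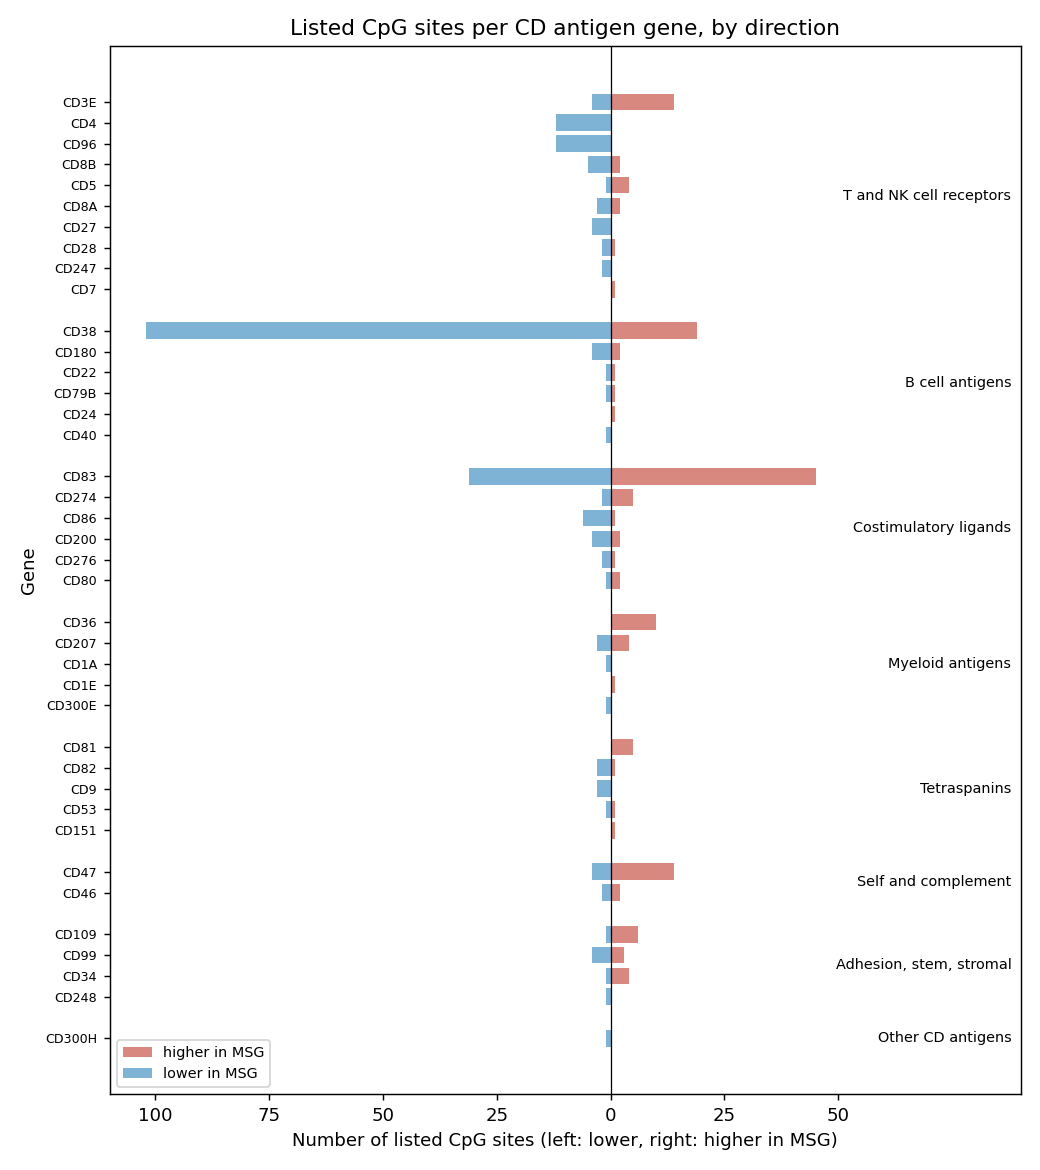
Number of listed CpG sites per CD antigen gene, lower in MSG to the left and higher to the right, with genes grouped by role. CD38 (102 lower, 19 higher) and CD83 (31 lower, 45 higher) hold most sites, while CD4 and CD96 point only down and CD36 only up.

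Most CD antigen sites lay outside the gene they were assigned to. Of the 382 sites, 139 (36.4%) were inside their gene, against 27.8% of all listed sites with a symbol. Without CD38 and CD83 the share was 30.3%. By annotation 203 were distal, 143 intronic, 29 in promoters (within 3 kb of a transcript start), 5 exonic, 1 in a 3' untranslated region and 1 just downstream. A further 22 sites lay inside a different gene: 17 sites given to CD3E were in MPZL2, 2 given to CD79B in SCN4A, 2 given to CD8A in RMND5A and 1 given to CD180 in MAST4.

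The spread between cows was wide next to the differences. The median absolute difference was 33.8 points, and the median standard deviation among the 6 cows of a group was 27.8 points. No CD antigen site passed limma's test with Benjamini-Hochberg adjustment over all 196275 sites, where the share of all sites called was 0.0%. The lowest adjusted p of a CD antigen site was 0.0781. An unadjusted limma p under 0.05 was reached by 212 of the 382 sites, or 55.5% against a background of 51.9%. An unadjusted exact permutation p under 0.05 was reached by 131 sites, against a background of 35.5%. Without CD38 and CD83, 73 of 185 sites (39.5%) reached it by limma and 43 by the exact permutation test.

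The ranges of the 2 groups of cows were apart at 4 CD antigen sites, while this held for 2.36% of all listed sites. Of these, 3 were lower in MSG, all at CD4 (0.971% of all listed sites were apart in that direction), and 1 was higher, near CD24 (1.39%). Both cytosines of a CpG were listed at 93 of 289 CpGs, and in all 93 the direction was the same on both strands. The median difference between strands within a cow was 4.76 points. At 315 CD antigen sites (82.5%, against 78.3% of all) at least 1 cow was at exactly 0. Without CD38 and CD83 this share was 76.8% of 185 sites. MRG replicate 3 had 12.7% of its CD antigen values at 0 and MSG replicate 6 had 35.4%.

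Averaged over all listed sites of a gene, 26 CD antigen genes with at least 3 sites could be tested. None passed limma's test with adjustment over the 7547 genes, of which 0.0133% passed. An unadjusted p under 0.05 was reached by 9 of the 26 genes, against 41.3% of all genes. The mean was higher in MSG for CD36, CD5 and CD81 and lower for CD4, CD9, CD27, CD38, CD96 and CD276. The median difference of gene means was -7.19 points over CD antigen genes and 3.27 points over all genes, and the median absolute difference was 17.4 and 18.2 points.

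**Figure D2:**
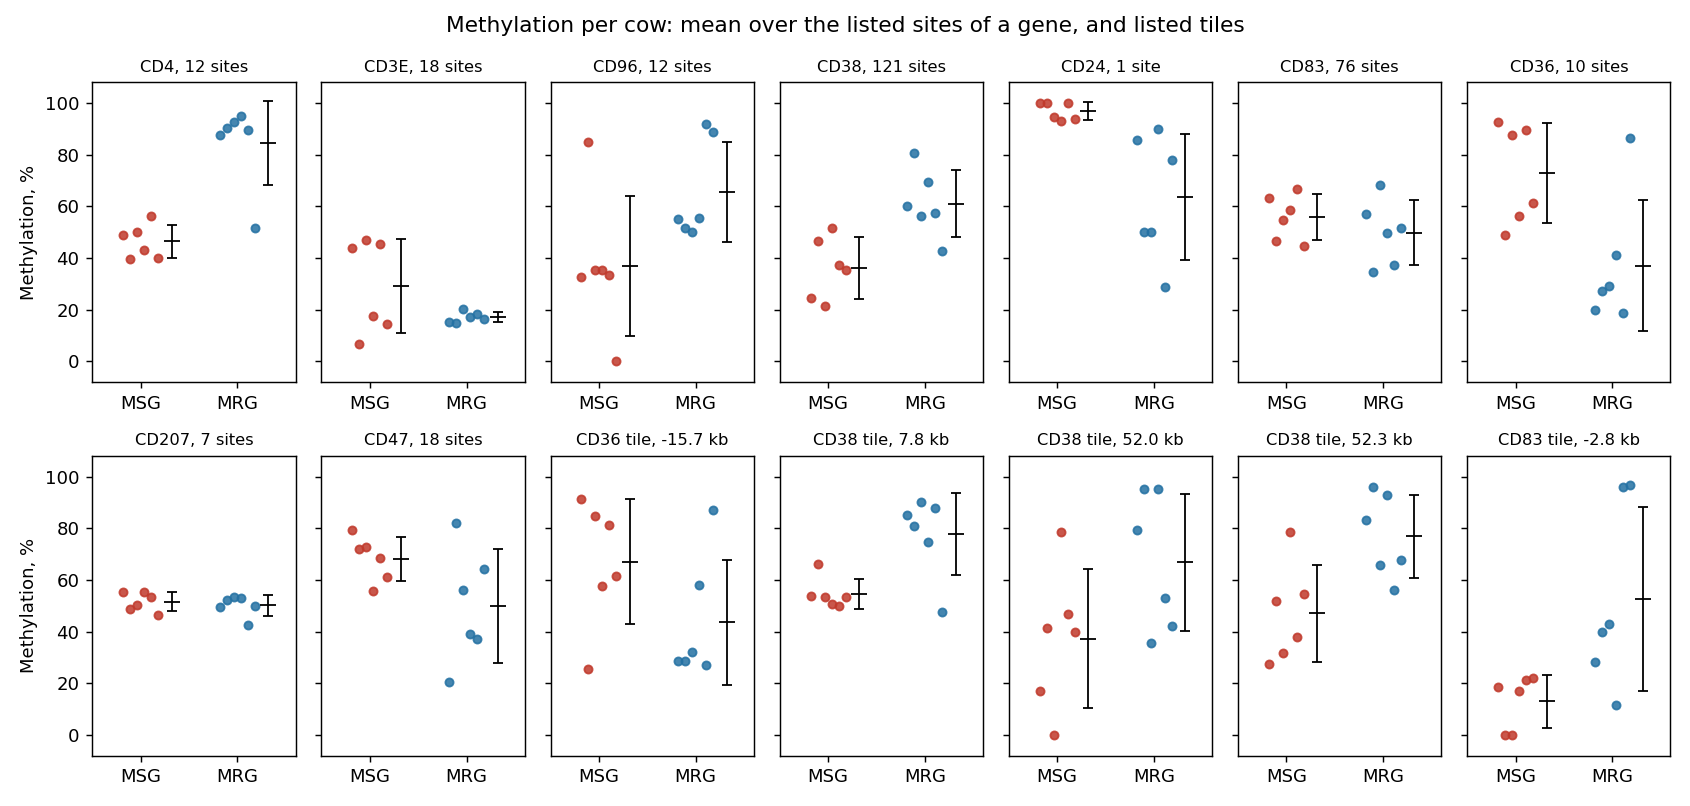
Methylation in percent of each MSG cow (red) and MRG cow (blue), as the mean over all listed sites of 9 genes and as the value of the 5 listed tiles; black bars are the group mean and 1 SD, and tile titles give the distance from the annotated start. In CD4, 5 of the 6 MRG cows lie at 87.6% or more and all MSG cows at 56.1% or less; at the CD83 tile 2 MRG cows stand near 96%.

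Among T and NK cell receptors, 10 genes had 69 sites, 24 higher and 45 lower in MSG. The co-receptor CD4 binds MHC class II and marks helper T cells. Its gene (chromosome 5, 103631360 to 103654878, minus strand, build ARS-UCD1.2) had 12 sites over 13.8 kb, all lower in MSG, of which 8 lay in promoters of its transcripts, 2 in introns and 2 in an exon. Averaged over the 12 sites, the MSG cows had 39.7% as the lowest, 46.2% as the median and 56.1% as the highest value. The MRG cows had 51.5%, 89.9% and 94.8%. MRG replicate 6 was the only MRG cow under 87.6% and the only one within the range of the MSG cows.

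The CD4 mean was 46.4% ± 6.46 in MSG cows and 84.4% ± 16.3 in MRG cows (SD, n = 6 each), a difference of -38.0 points with a limma interval (95%) of -53.9 to -22.2. The adjusted p by limma was 0.0514, just above the threshold, and the exact permutation p was 0.00433 unadjusted and 0.0813 adjusted over all genes (two-sided, n = 6 each). With a cow left out, the limma adjusted p ran from 0.00899 to 0.0722 and fell under 0.05 without MSG replicate 4, MRG replicate 4 or MRG replicate 6, where 2.62%, 3.34% and 0.557% of all genes passed. Only 2 of the 12 sites had a cow at exactly 0, and over the other 10 sites the difference was -36.7 points (limma adjusted p = 0.00994), in a setting where 60.9% of all genes tested passed. With strands averaged the limma adjusted p was 0.0477 (0.801% of all genes passed), and among genes with at least 10 sites only it was 0.0311 (4.75% passed).

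The CD4 site with the largest difference and no overlap was at position 103653262, 1.62 kb inside the gene. There the MSG cows had a lowest value of 20%, a median of 33.8% and a highest of 44.4%, and the 5 MRG cows with a value had 50%, 72.7% and 100%. A second site, at 103649046, was lower in every MSG cow than in any measured MRG cow, with medians of 10.96% and 55.6%. At 103646776, 0.77 kb from an annotated start, the MSG cows reached 85.7% and the MRG cows began at 91.7%. Each of these 3 sites lacked 1 MRG cow, replicate 3 at 103653262 and 103649046 and replicate 6 at 103646776, and their limma adjusted p was 0.0835, 0.0835 and 0.0837. Without MRG replicate 6, 10 CD4 sites had no overlap.

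**Figure D3:**
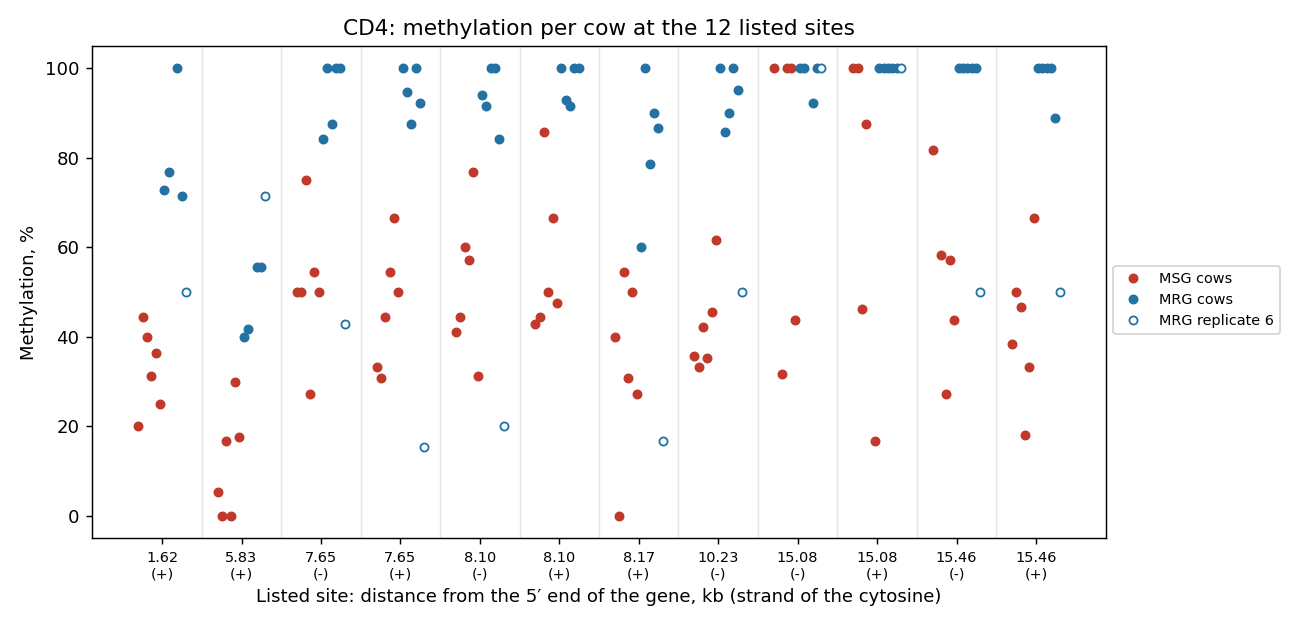
Methylation in percent of each cow at the 12 listed CD4 sites, ordered by distance from the 5′ end of the gene, with the strand of the cytosine in brackets. Most MRG cows lie above the MSG cows; MRG replicate 6 (open circles) lies with the MSG cows at most sites.

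CD3E, a signalling chain of the T cell receptor complex, had 18 sites (14 higher, 4 lower), of which 1 lay in the gene (chromosome 15, 29004371 to 29015210, plus strand) and 17 upstream within MPZL2. At the 14 higher sites, which span 10.5 kb, the MSG cows had a lowest mean of 0%, a median of 28.9% and a highest of 58.5%. The MRG cows had 0%, 0% and 7.95%. MSG replicates 1, 3 and 5 stood at 47.3% to 58.5%, while 5 of the 6 MRG cows and MSG replicate 2 were at 0 throughout. Over all 18 sites the mean was 29.2% ± 18.2 in MSG and 17.1% ± 2.01 in MRG, a difference of 12.1 points (interval -4.24 to 28.5, limma adjusted p = 0.210). All 18 sites had a cow at 0.

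CD96, a receptor of NK and T cells for nectin-family ligands, had 12 sites, all lower in MSG, over 98.6 kb around its start on chromosome 1 (gene 56306180 to 56403972, plus strand). The means of MSG cows were 0% at the lowest, 34.3% at the median and 84.8% at the highest. Those of MRG cows were 50.1%, 55.3% and 91.8%. MSG replicate 6 was at 0 at every site, while MSG replicate 2 stood among the high MRG cows, so the groups overlapped. The difference was -28.5 points (interval -55.2 to -1.88, limma adjusted p = 0.108), and all 12 sites had a cow at 0.

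The other T and NK cell receptor genes had few sites. The CD8 co-receptor chains that mark cytotoxic T cells had 2 higher and 5 lower sites for CD8B and 2 higher and 3 lower for CD8A, and CD5, a dampener of T cell receptor signals, had 4 higher and 1 lower. All 4 sites of the TNF receptor family member CD27 and both sites of the T cell receptor zeta chain CD247 were lower. The costimulatory receptor CD28 had 1 higher and 2 lower sites, and CD7 had 1 higher site. Gene means of CD8B, CD5, CD8A, CD27 and CD28 differed by -30.5 (CD27) to 21.1 points (CD5), and 0 of these 5 passed limma's test after adjustment.

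B cell antigens made up 6 genes and 133 sites, 24 higher and 109 lower in MSG. CD38 (chromosome 6, 110986237 to 111044215, plus strand) alone had 121 sites over 125 kb, 102 lower and 19 higher, with 73 of them inside the gene. Over all 121 sites, the MSG cows had a lowest mean of 21.4%, a median of 36.3% and a highest of 51.4%, and the MRG cows 42.7%, 58.7% and 80.6%. MSG replicates 2 and 4 and MRG replicate 6 lay in the overlap. The means were 36.1% ± 11.8 and 61.1% ± 12.9 (SD, n = 6 each), a difference of -25 points (interval -40.8 to -9.18, limma adjusted p = 0.0719). The adjusted p was between 0.0579 and 0.101 with any 1 cow left out. Over the 21 sites with no cow at 0 the difference was -6.95 points (limma adjusted p = 0.454).

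At the lower CD38 sites, the same cows were at 0 over long distances. MSG replicate 3 was at exactly 0 at 80 of the 102 sites, MSG replicate 1 at 70, MSG replicate 6 at 62, MSG replicate 5 at 54 and MRG replicate 6 at 45. At 39 sites, which span 124 kb from upstream to downstream of the gene, all 5 of these cows were at 0 together. MSG replicate 4 was at 0 at 23 of the 102 sites and MSG replicate 2 at 14. MRG replicates 2, 3, 4 and 5 were at 0 at none of the 102 sites, and MRG replicate 1 at 1. MRG replicates 2 and 4 had the highest means.

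Along CD38, the lower sites were grouped by the sign of their difference in these same cows. A lower MSG mean in every stretch follows from that grouping. The 25 sites upstream of the gene had medians over cows of 31.8% in MSG and 62.8% in MRG, the 61 sites within it 30.8% and 63.8%, and the 16 sites downstream 5.92% and 53.7%. Within the gene the highest MSG cow (42.3%) lay just under the lowest MRG cow (43.6%), while the groups overlapped upstream and downstream. The 19 higher sites had a median of 87.4% in MSG and 45.7% in MRG. Without MRG replicate 6, 16 CD38 sites, 8 higher and 8 lower, had no overlap between the groups, against 0 with all cows.

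**Figure D4:**
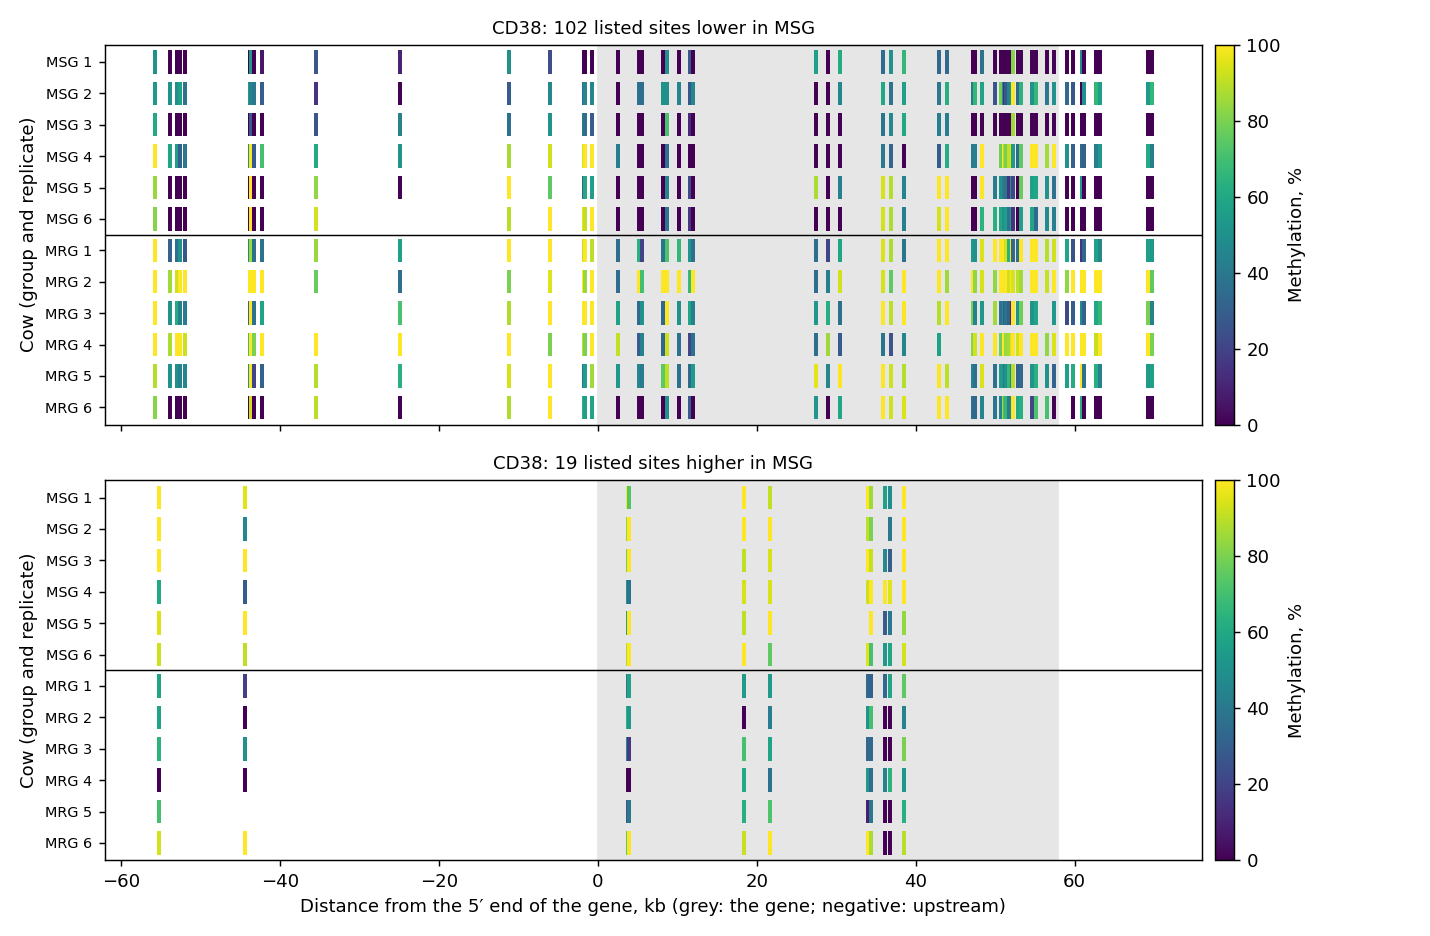
Methylation of each cow at the listed CD38 sites by distance in kb from the 5′ end of the gene (grey), with 102 sites lower in MSG above and 19 higher below; colour gives percent methylation. In the upper plot, dark ticks (0%) recur from upstream to downstream of the gene in MSG replicates 1, 3, 5 and 6 and MRG replicate 6. These cows were at 0 at 45 (MRG replicate 6) to 80 (MSG replicate 3) of the 102 sites.

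CD24, a small glycosylated surface protein of immature B cells and neutrophils, had 1 site, at chromosome 9 position 42988532, 3.91 kb upstream of its start. The MSG cows had 92.9%, 97.2% and 100% as lowest, median and highest value, and the MRG cows 28.6%, 63.9% and 90%. No MRG cow reached the lowest MSG cow. The difference was 33.2 points (interval 2.45 to 63.9, limma adjusted p = 0.0902). The site is described because its groups do not overlap, which fixes the exact permutation p. A single site has no gene mean test. Among the remaining B cell antigens, CD180, a Toll-like receptor relative, had 2 higher and 4 lower sites. The inhibitory receptor CD22 and the B cell receptor chain CD79B had 1 of each, and CD40, the receptor for T cell help, had 1 lower site.

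Costimulatory and checkpoint ligands had 102 sites in 6 genes, 56 higher and 46 lower in MSG. CD83 (chromosome 23, 42654904 to 42676478, minus strand) had 76 sites spread over 365 kb, 63 of them distal and 10 inside the gene, 45 higher and 31 lower. With both directions present, the means over all 76 sites were close, at 55.7% ± 8.87 in MSG and 49.8% ± 12.6 in MRG. The difference was 5.93 points (interval -8.58 to 20.4, limma adjusted p = 0.472). With 1 cow left out it ran from 2.89 points (without MRG replicate 2) to 9.66 points (without MRG replicate 3), and it was 3.75 points without MSG replicate 5 and 3.46 points without MRG replicate 5. Without sites where any cow was at 0 it was -12.4 points.

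Taken by direction, the CD83 sites were set apart by a few cows. At the 45 higher sites the MSG cows had a lowest mean of 54.3%, a median of 80.2% and a highest of 90.2%, and the MRG cows 1.99%, 46.3% and 65.2%. MRG replicate 5 was at 0 at 43 of them and MRG replicate 6 at 26. At the 31 lower sites the MSG cows had 5.17%, 30.1% and 38.8% and the MRG cows 26.0%, 59.7% and 91.1%. MSG replicates 2 and 3 were both at 0 at 25 of these sites, and MRG replicates 5 and 6 had the highest means. At the 6 higher sites inside the gene, every MSG cow was at 95.2% or more, 4 MRG cows lay between 43.4% and 93.8%, and MRG replicates 5 and 6 were at 0. Values of exactly 0 occurred at 73 of the 76 sites.

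**Figure D5:**
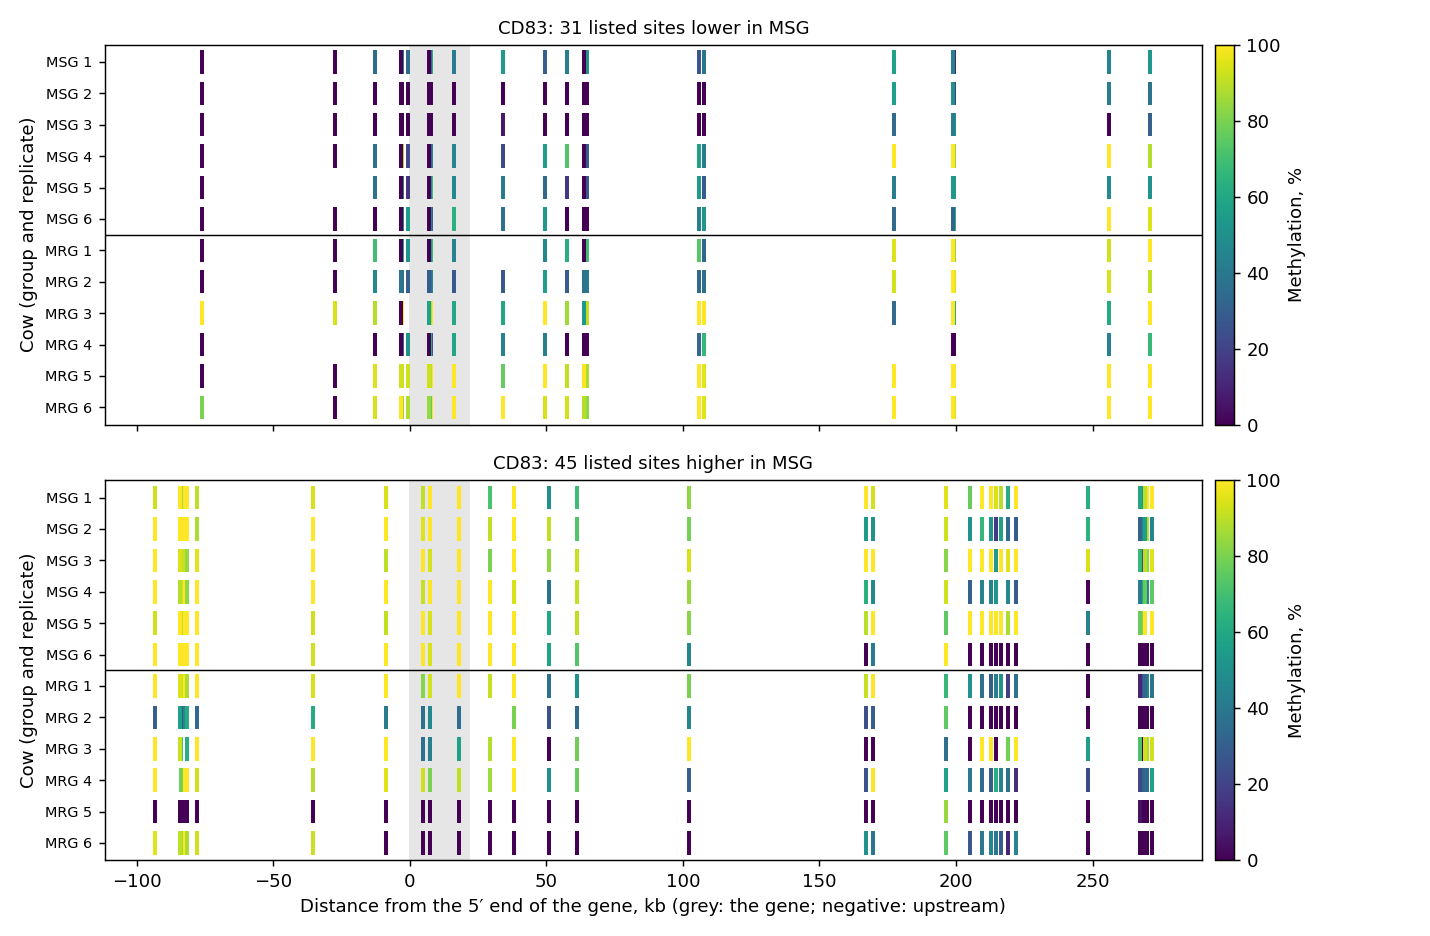
Methylation of each cow at the listed CD83 sites by distance in kb from the 5′ end of the gene (grey), with 31 sites lower in MSG above and 45 higher below; colour gives percent methylation. MRG replicates 5 and 6 are dark in the lower plot and bright in the upper one, and MSG replicates 2 and 3 are dark in the upper plot near and upstream of the gene.

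The other ligands of this class had 26 sites. CD274, the checkpoint ligand PD-L1, had 5 higher and 2 lower sites, and CD86, a ligand of CD28, had 1 higher and 6 lower. CD80, the other CD28 ligand, had 2 higher sites and 1 lower, CD200, a ligand that quiets myeloid cells, had 2 higher and 4 lower, and CD276, known as B7-H3, had 1 higher and 2 lower. Their gene means differed by -21.4 (CD86) to 16.7 points (CD80), and 0 of the 5 passed limma's test after adjustment.

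Myeloid and antigen presenting cell antigens had 20 sites in 5 genes, 15 higher and 5 lower. CD36, a scavenger and fatty acid receptor of monocytes and platelets (chromosome 4, 40380301 to 40443336, minus strand), had 10 sites, all higher in MSG, with 2 in the gene and 8 upstream of it. The MSG cows had a lowest mean of 49.0%, a median of 74.6% and a highest of 92.8%. The MRG cows had 18.6%, 28.1% and 86.4%. MRG replicate 6 stood among the high MSG cows, and the other 5 MRG cows, at 41.1% or less, lay under all MSG cows. The difference was 35.8 points (interval 10.1 to 61.4, limma adjusted p = 0.0790), and without MRG replicate 6 it was 45.6 points (limma adjusted p = 0.0495).

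CD207 encodes langerin, a lectin of Langerhans cells, and had 7 sites, 4 higher and 3 lower, 5 of them in its promoter (chromosome 11, gene 13559661 to 13564560, plus strand). At its 4 higher sites the MSG cows had a lowest mean of 20.5%, a median of 57.3% and a highest of 69.4%, and the MRG cows 6.25%, 19.3% and 40.7%. At the 3 lower sites they had 27.3%, 44.9% and 94.7% against 62.4%, 93.0% and 97.6%. In both sets MSG replicates 2 and 5 lay with the MRG cows, and MRG replicate 6 lay between the other cows of the groups. Over all 7 sites the means were close, at 51.6% ± 3.70 and 50.2% ± 4.01 (difference 1.42 points, interval -8.22 to 11.1, limma adjusted p = 0.798). The lipid presenting molecules CD1A and CD1E and the receptor CD300E had 1 site each, lower for CD1A and CD300E and higher for CD1E, and the related CD300H had 1 lower site.

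Tetraspanins, which organise other receptors in the membrane, had 8 higher and 7 lower sites. CD81, part of the B cell co-receptor, had 5 sites, all higher and all upstream of the gene, and was singled out after its values were seen. The MSG cows had 35.5%, 87.9% and 96.2% as lowest, median and highest mean, and the MRG cows 0%, 37.2% and 57.9%. MSG replicate 6 alone among MSG cows lay within the MRG range. The difference was 44.5 points (interval 20.1 to 68.8, limma adjusted p = 0.0633). The limma adjusted p was 0.0378 without MSG replicate 6 and 0.0455 without MRG replicate 4, and all 5 sites had a cow at 0. CD9 had 3 lower sites, CD82 had 1 higher and 3 lower, CD53 had 1 of each, and CD151 had 1 higher.

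CD47, the signal by which cells avoid being engulfed, had 18 sites over 111 kb (chromosome 1, gene 52712128 to 52777176, minus strand), 14 higher and 4 lower, with 3 in the gene. At the 14 higher sites the MSG cows had a lowest mean of 54.9%, a median of 78.9% and a highest of 94.6%. The MRG cows had 0%, 41.2% and 85.6%. MRG replicate 1 was at 0 at all 14 sites, and MRG replicates 2 and 6 lay within the MSG range. Over the 18 sites the means were 68.3% ± 8.52 and 49.9% ± 22.0, a difference of 18.4 points (interval -1.42 to 38.2, limma adjusted p = 0.138). The complement regulator CD46 had 2 higher and 2 lower sites. Adhesion, stem cell and stromal antigens had 13 higher and 7 lower sites: CD109 had 6 and 1, CD34, a marker of blood stem cells, 4 and 1, CD99, which helps leukocytes cross vessel walls, 3 and 4, and CD248 1 lower.

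Promoter sites of CD antigen genes were mostly lower in MSG, 23 of 29, whereas 54.4% of all listed promoter sites were higher. CD4 held 8 of the 29, CD38 and CD207 5 each and CD83 3, and sites of a gene are not separate replicates. Promoter means were lower in MSG for CD4, CD38 and CD83, but those of the other genes went both ways. They were higher for CD207 (3.27 points), CD80 (46.8 points) and CD151 (24.9 points). They were lower for CD46 (-38.2 points), CD22 (-35.7 points), CD9 (-27.1 points) and CD86 (-19.2 points). No overlap between the groups was found at 3 of the 29, all at CD4, against 2.78% of all listed promoter sites. Over the 8 CD4 promoter sites the MSG cows had 30.9%, 37.3% and 53.3% and the MRG cows 38.0%, 85.6% and 93.2% as lowest, median and highest mean. For the 5 CD38 promoter sites these were 0%, 27.0% and 77.8% against 35.5%, 71.3% and 92.2%, and for the 3 CD83 promoter sites 0%, 37.0% and 52.4% against 35.5%, 73.2% and 100%. In CD4 only MRG replicate 6 lay within the range of the MSG cows, while in CD38 and CD83 several cows of both groups overlapped.

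Of the 5 tiles, 3 passed limma's test with adjustment over all 1227 tiles, where 73.3% passed, and all 3 were lower in MSG (31.6% of all tiles passed in that direction and 41.6% in the other). In the first intron of CD38 (chromosome 6, 110994501 to 110995000) the MSG cows had 50%, 53.5% and 66.2% as lowest, median and highest value, and the MRG cows 47.6%, 83.1% and 90.3%. MRG replicate 6 was the lowest of all 12 cows, and the other 5 MRG cows lay above every MSG cow. The difference was -23.3 points (interval -42.2 to -4.44, limma adjusted p = 0.0377). Leaving out 1 of MSG replicates 1, 3 and 6 or of MRG replicates 1, 2, 3 and 5 raised the limma adjusted p above the threshold, to 0.0552 to 0.0622.

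In the last intron of CD38, 2 overlapping tiles were listed. At 111039001 to 111039500 the MSG cows had 27.7%, 44.9% and 78.7% and the MRG cows 56.0%, 75.4% and 96.2%, and only MSG replicate 4 lay within the MRG range. The difference was -29.9 points (interval -51.7 to -8.01, limma adjusted p = 0.0347), and leaving out 1 of MSG replicates 1 and 3 or of MRG replicates 1 and 2 gave a limma adjusted p of 0.0517 to 0.0565. At 111038751 to 111039250 the difference was -29.5 points (interval -57.4 to -1.65, limma adjusted p = 0.0512).

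The CD83 tile lay in the promoter, at -2.77 kb from the start (chromosome 23, 42679251 to 42679750). The MSG cows had 0%, 17.7% and 22.1% and the MRG cows 11.7%, 41.4% and 96.6%. MRG replicates 5 and 6 stood at 95.9% and 96.6%, MRG replicate 4 lay within the MSG range, and MSG replicates 2 and 3 were at 0. The difference was -39.4 points (interval -66.9 to -11.9, limma adjusted p = 0.0347). The limma adjusted p was 0.0503 without MSG replicate 3 and 0.0548 without MRG replicate 5.

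The CD36 tile, 15.7 kb upstream of the gene (chromosome 4, 40459001 to 40459500), had 25.7%, 71.4% and 91.5% in MSG and 27.1%, 30.4% and 87.0% in MRG. MSG replicate 2 was the lowest of all cows and MRG replicate 6 the second highest. The difference was 23.4 points (interval -2.70 to 49.6, limma adjusted p = 0.0829), and the limma adjusted p was 0.0482 without MSG replicate 2 and 0.0383 without MRG replicate 6. By the exact permutation test 0 of the 5 tiles passed after adjustment, with 3 at an unadjusted p under 0.05, while 17.4% of all tiles passed. All 5 tiles passed limma's test without MRG replicate 6, 0 without MSG replicate 3, and 1 without MSG replicate 1 or MRG replicate 1, 2 or 5. Among all tiles, 54.0%, 32.4% and 36.4% to 38.2% passed in these settings. None of the 5 tiles was free of overlap between the groups, against 6.03% of all tiles.

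One MRG cow recurred in these values. MRG replicate 6 lay within the range of the MSG cows in the means of CD4, CD38 and CD36. At CD83 it was the second lowest of all cows at the higher sites and the highest at the lower ones. It did not lie with the MSG cows in every gene. At the CD96 sites upstream of the gene it was at 98.5%, above the highest MSG cow (95.7%). In the CD81 mean it was at 26.6%, under the lowest MSG cow (35.5%). Without MRG replicate 6, 28 CD antigen sites had no overlap between the groups in place of 4, while 4.25% of all listed sites had none. Of the 28 CD antigen sites, 16 were at CD38 and 10 at CD4, and sites of a gene are not separate replicates. Leaving out any other single cow gave 5 to 10 CD antigen sites and 3.69% to 4.38% of all listed sites.

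Genes related to the CD antigens were looked at by number only. Of 40 genes that bear a CD number under another symbol, such as integrins and selectins, 27 had 116 sites, 79 higher and 37 lower in MSG. Of 29 ligands and signalling partners, 14 had 126 sites, 74 higher and 52 lower. Among all listed sites 52.7% were higher. Of related genes with at least 3 sites, 0 of 15 and 0 of 8 gene means passed limma's test after adjustment, where 0.0133% of all genes passed. An unadjusted limma p under 0.05 was reached by 7 of the 15 and 5 of the 8, against 41.3% of all genes.

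Sites of genes that mark blood cell types were listed in both directions. Markers of T cells had 141 of 189 sites higher in MSG, of B cells 26 of 36, of NK cells 26 of 31 and of neutrophils 30 of 37. Monocyte markers had 10 of 50 higher and erythroid and platelet markers 83 of 189. Among all listed sites 52.7% were higher. Few genes carried these sites: 6 of 12 T cell, 7 of 10 B cell, 5 of 7 NK cell and 2 of 10 neutrophil markers. For monocytes it was 4 of 7 and for erythroid cells and platelets 5 of 9. Members of a list also differed: CD3E had 14 higher and 4 lower sites, while all 4 sites of the T cell marker LCK were lower. CD3E and CD247 are among the T cell markers and CD79B among the B cell markers. CD3E held 18 of the 189 T cell marker sites, LCK 4 and CD247 2, so most lay with other genes of the list. Of the CD3E sites, 17 lay inside MPZL2, and the 2 CD79B sites lay inside SCN4A. The part of cell composition in the values of the CD antigen genes was not tested.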

How the data were processed

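Blood DNA methylation of 12 cows was analysed from the authors' deposited tables of percent methylation, which per the file headers also give a p-value and q-value and a difference score (MSG minus MRG) for each row. The submitters' processing notes name fastp 0.23.1, Bismark, DRAGEN, ChIPseeker 1.32.1 and the build ARS-UCD1.2, with no role or order; the differential test is not given in the sources used here. A further 36 columns of coverage and read counts carry numbers in place of cow names and were left out, so depth is unknown and no interval covers it. Coordinates and gene assignment are the authors'; a names table of assembly ARS-UCD2.0 served only to count symbols.

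MSG was compared with MRG by limma 3.58.1 (R 4.3.3) on percent values, two-sided, adjusted over all 196275 sites, 1227 tiles or 7547 genes with at least 3 sites (threshold 0.05). The code was tested on simulated data. The alternative was an exact permutation test over 924 regroupings. Members, role lists and the rule for genes with values (at least 10 sites, a tile, at least 3 promoter sites, or a site without overlap) were chosen with earlier results of these data known. No sequence is shown.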

Additional observations from a re-analysis of the deposited data

Results flagged for a closer look

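In 28 groups of cows (the gene means and tiles of the genes described with values), 5 cows stood apart from the other 5 of their group. The rule used flags about 1 in 20 groups of independent, normally distributed values. These groups share cows and genes and hold percentages from selected rows. The count can therefore not be set against that rate. For the CD4 mean, MRG replicate 6 was at 51.5%, while the other MRG cows lay between 87.6% and 94.8%. For the CD36 mean the same cow was at 86.4%, against 18.6% to 41.1%, and at the CD38 tile in the first intron it was at 47.6%, against 74.9% to 90.3%. At that tile MSG replicate 2, at 66.2%, lay above the other MSG cows at 50% to 53.7%. For the CD207 mean, MRG replicate 5 was at 42.7%, against 49.7% to 53.4%.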

How the results depend on the processing

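No paired analysis was possible because the replicate numbers only name cows and pair none. No CD antigen site passed limma's test with any cow left out (0 to 0); without rows with a cow at exactly 0, 49 of 67 sites passed, beside 73.1% of all such rows. The number of passing tiles was 0 by the exact permutation test (17.4% of all tiles passed) and 0 to 5 with a cow left out (32.4% to 65.0% of all tiles). Gene means passing numbered 2 of 5 (CD4 and CD109) without rows with a cow at 0, where 60.9% of all genes passed. They numbered 1 among genes with at least 10 sites (4.75% of all passed) and 1 with strands averaged (0.801%). With a cow left out they numbered 0 to 2 (0.0133% to 3.34% of all genes). Sites higher in MSG made up 32.3% at differences of 40 points or more, 52.5% without CD38 and 49.7% without CD38 and CD83 (the last 2 settings chosen after seeing the data). It was 40.8% to 40.8% with a cow left out, since the rows had been selected for their difference. Sites without overlap numbered 1 of 308 among rows with all 12 cows, against 1.93% of all such rows. With a cow left out they numbered 5 to 28 of 382, against 3.69% to 4.38% of all listed sites. The share of sites with a cow at 0 was 93.8% at differences of 40 points or more, 77.9% in or within 50 kb of the gene, and 78.5% to 81.9% with a cow left out. The sign of the CD207 difference turned to -17.9 points without rows with a cow at 0 and ran from -0.0815 (without MRG replicate 5) to 2.47 points with a cow left out, and that of CD83 to -12.4 points without rows with a cow at 0. Where no construction above shows it, the cause was not tested. Depth was not used, so its limits on single values are unknown.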

Other observations

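Among relatives of the CD antigens, chosen here after their values were seen, the kinase LCK, which docks to CD4 and CD8, had 4 sites, all lower in MSG, with a mean difference of -34.8 points (limma adjusted p = 0.0502). NCAM1, which is CD56, had 24 of 26 sites higher (27.1 points, limma adjusted p = 0.0577). TIGIT, an inhibitory receptor that shares ligands with CD96, had 18 of 20 sites higher (29.0 points, limma adjusted p = 0.0762), whereas all 12 sites of CD96 were lower. Of the ligands of CD47, THBS1 had 33 of 45 sites higher and SIRPA had 16 of 19 lower.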
